A study of Mus musculus with 6 samples.

Results

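The mouse genome holds 3 numbered runs of odorant receptor (OR) genes on chromosome 11, from Olfr311 to Olfr331, from Olfr376 to Olfr412 and from Olfr1377 to Olfr1396, called the Olfr311, Olfr376 and Olfr1377 runs after their lowest number. Their members were taken by name: every gene whose whole name was Olfr and a number inside one of these ranges was kept, names marked -ps were left out, and 1 further gene of the ranges is not analysed here. This gave 56 genes of the 24661 in the expression tables, 16 in the Olfr311 run, 22 in the Olfr376 run and 18 in the Olfr1377 run. The rule used the names only, no measured value, but it was set with earlier results of these data known. RNA-Seq was made from whole olfactory mucosa of 6 mice aged 21 days, 3 wild-type and 3 RTP1,2DKO, the latter lacking both Rtp1 and Rtp2, with strain C57BL/6 given for all 6. By the description of the methods, the deletions were made one after the other in embryonic stem cells of mixed strain origin, the line was backcrossed to C57BL/6, the mice were sex-matched littermates of both sexes, and the dissected mucosa held surrounding tissue beside the olfactory epithelium. The deletion was in the whole animal from conception, so no change can be placed in 1 cell type or age from these samples.

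ORs are G protein-coupled receptors with which olfactory sensory neurons (OSNs) detect odorants. Each OSN chooses a single OR gene, from a single allele, out of a large family that lies in clusters on most chromosomes, so the amount of an OR's mRNA in the tissue follows the number of neurons that chose it and the mRNA in each of them. RTP1 and RTP2 are accessory proteins that help ORs leave the endoplasmic reticulum and reach the cell surface, and the study asked how OR expression differs without them. Neighbouring OR genes often arose by duplication and have similar coding sequences, and a typical OR gene has its whole coding sequence in 1 exon, with non-coding exons before it.

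By the GENCODE M21 annotation of GRCm38, the assembly also called mm10, the 3 numbered runs lay in 4 places on chromosome 11. Olfr1380 to Olfr1396 spanned chr11:49109982-49565859 (455.9 kb). Olfr1377 and Olfr1378 lay apart from them, at chr11:50966530-50986593 (20.1 kb). The Olfr311 run spanned chr11:58501598-58844111 (342.5 kb), and the Olfr376 run spanned chr11:73371246-74366218 (995.0 kb). The annotation has all 56 as protein-coding genes. The coding sequence lay in 1 exon in 55 of them, and 53 had at least 1 exon before it. In 2 of the runs, nearby genes with similar sequence differed in opposite directions between the genotypes when measured against the typical OR. Measured against all genes, Olfr393, Olfr1385 and Olfr1386 did not pass the threshold given below (log2 fold changes of -0.01, 0.06 and 0.72), while Olfr394, Olfr1389 and Olfr1393 were lower. A stretch of 120 coding bases is printed for these 6 genes, around the codons of the aspartate-arginine-tyrosine motif. That motif is known from ORs and was found in the proteins of 44 of the 56 members. The first pair is Olfr393 (minus strand, chr11:73847698-73847817) and its neighbour Olfr394 (minus strand, chr11:73887951-73888070), which differed at 12 of 120 bases. Capitals mark the bases at which a sequence differs from the first of its set.
Olfr393: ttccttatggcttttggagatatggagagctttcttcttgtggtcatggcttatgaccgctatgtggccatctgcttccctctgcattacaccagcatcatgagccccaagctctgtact
Olfr394: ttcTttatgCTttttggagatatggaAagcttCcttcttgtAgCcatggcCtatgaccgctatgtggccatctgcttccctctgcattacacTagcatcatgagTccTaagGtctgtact

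The other set is from the Olfr1377 run and holds Olfr1386 (chr11:49470459-49470578), Olfr1385 (chr11:49494841-49494960), Olfr1389 (chr11:49430784-49430903) and Olfr1393 (chr11:49280456-49280575), all on the plus strand and all at coding bases 307 to 426. Against Olfr1386, the window differed at 7 bases in Olfr1385, at 22 in Olfr1389 and at 10 in Olfr1393, again in capitals. Olfr1386 and Olfr1385 were higher among ORs in RTP1,2DKO, while Olfr1389 and Olfr1393 were lower.
Olfr1386: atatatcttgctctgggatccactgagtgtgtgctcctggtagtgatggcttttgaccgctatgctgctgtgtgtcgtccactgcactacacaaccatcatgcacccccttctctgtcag
Olfr1385: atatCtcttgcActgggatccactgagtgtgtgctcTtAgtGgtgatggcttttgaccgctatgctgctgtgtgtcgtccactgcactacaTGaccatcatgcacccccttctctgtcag
Olfr1389: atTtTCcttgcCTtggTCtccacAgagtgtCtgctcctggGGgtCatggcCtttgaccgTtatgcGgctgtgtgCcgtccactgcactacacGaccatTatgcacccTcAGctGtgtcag
Olfr1393: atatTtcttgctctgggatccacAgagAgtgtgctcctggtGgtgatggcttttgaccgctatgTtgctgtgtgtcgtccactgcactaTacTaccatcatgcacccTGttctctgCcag

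The libraries held 31125410 to 41636996 estimated counts each, of which intact ORs (1086 genes, not named or annotated as pseudogenes) took 0.720% to 1.12%. Rtp1 fell from normalized counts of 20522, 25301 and 13543 in the 3 wild-type mice to 90.6, 85.5 and 109 in the 3 RTP1,2DKO mice. Rtp2 fell from 8497, 9511 and 7157 to 58.0, 26.2 and 51.0. Of 11 markers of mature OSNs, 9 were lower in RTP1,2DKO and none was higher, with a summed normalized count of 247229 to 289411 in wild-type and 151256 to 157312 in RTP1,2DKO. Of 6 markers of immature OSNs, Gap43 and Gng8 were higher and none was lower. None of the 5 sustentacular, 3 respiratory ciliated and 3 macrophage markers passed the threshold, nor did the 2 haemoglobin genes, whose sum was 54401 to 88819 in wild-type and 86786 to 158051 in RTP1,2DKO. None of 9 regulators of OR gene choice, Lhx2, Ldb1, Emx2, Ebf1 to Ebf4, Kdm1a and Atf5, passed it either. At an unadjusted p under 0.05 by the same test (edgeR) there were 1 ciliated cell marker (Tekt1), both haemoglobin genes and 2 regulators (Ebf2 and Ebf4), and of all these DESeq2's Wald test called Hbb-bs alone. In bulk tissue, fewer neurons that chose an OR and less of its mRNA in each neuron cannot be told apart, and the part of the lower OSN marker level in the results below was not tested.

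The 3 runs took different shares of all intact OR counts, and RTP1,2DKO mice lay above wild-type mice in one run and below them in another. The Olfr1377 run took 2.36%, 2.42% and 2.37% of the intact OR counts in the wild-type mice and 3.12%, 3.21% and 2.56% in the RTP1,2DKO mice. The means were 2.38% ± 0.0313 and 2.96% ± 0.347 (SD, n = 3), and every RTP1,2DKO mouse lay above every wild-type mouse. The Olfr311 run took 0.704%, 0.590% and 0.640% in wild-type and 0.401%, 0.330% and 0.352% in RTP1,2DKO, with means of 0.645% ± 0.0568 and 0.361% ± 0.0362. Here every RTP1,2DKO mouse lay below every wild-type mouse. The Olfr376 run took 1.68%, 1.42% and 1.45% in wild-type and 1.65%, 1.02% and 1.09% in RTP1,2DKO, and the genotypes overlapped through RTP1,2DKO mouse 1. Between mice of the same number, the RTP1,2DKO mouse was the lower one in 3 of 3, for number 1 only by 1.65% against 1.68%. No label ties a number to a litter, so this is not a paired comparison. That overlap rested on 1 gene: without Olfr393, the most abundant member, the rest of the range took 0.929% ± 0.0447 in wild-type and 0.595% ± 0.0801 in RTP1,2DKO, with no overlap. Leaving out the most abundant member of the others, Olfr1388 or Olfr328, left the order of the genotypes as it was. A single OR outside these runs, Olfr907, took 19.3% to 23.2% of the intact OR counts in wild-type and 23.4% to 33.5% in RTP1,2DKO, so shares were also taken without it. On that base the Olfr1377 run took 3.04% ± 0.0982 in wild-type and 4.12% ± 0.290 in RTP1,2DKO. The Olfr311 run took 0.821% ± 0.0577 and 0.503% ± 0.0403, again without overlap. The Olfr376 run took 1.93% ± 0.132 and 1.73% ± 0.382, and the genotypes still overlapped.

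**Figure D1:**
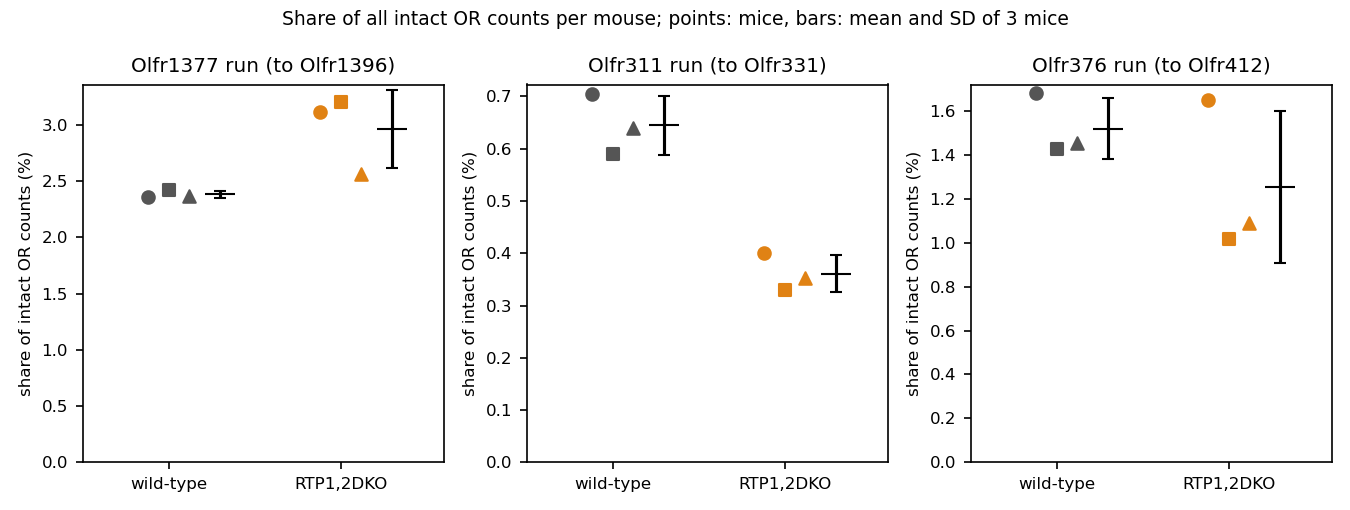
Share of all intact OR counts (%) that fell on each of the 3 runs, 1 point a mouse, with bars for the mean and SD of 3 mice. The Olfr1377 run lay between 2.36% and 2.42% in wild-type and between 2.56% and 3.21% in RTP1,2DKO, the Olfr311 run lay lower in every RTP1,2DKO mouse, and the Olfr376 run overlapped.

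The members were compared between genotypes on 2 scales. In the all-gene fit, libraries were scaled over all 24661 genes. In the OR-normalized fit, the table was reduced to intact ORs and scaled over them, so a fold change is measured against the typical OR. A gene passed the threshold at a Benjamini-Hochberg adjusted p under 0.05 by edgeR's quasi-likelihood test, adjusted over all genes tested in that fit. In the all-gene fit, 3.61% of all genes passed (0.460% higher and 3.15% lower), as did 42.7% of intact ORs (4.36% higher and 38.3% lower). Against that background, 21 of the 55 members tested were lower (8 of 15 in the Olfr311 run, 8 of 22 in the Olfr376 run, 5 of 18 in the Olfr1377 run) and 1 was higher, Olfr1396, so the share that was lower was close to that of intact ORs. In the OR-normalized fit, 55.0% of intact ORs passed, with 29.1% higher and 25.9% lower. The study, which normalized by reads on intact ORs, reported another balance, with more ORs underrepresented than overrepresented. A member called higher here need not be one the study called overrepresented. In the OR-normalized fit made here, 10 of 18 members of the Olfr1377 run were higher and 3 lower. In the Olfr376 run 5 of 22 were higher and 6 lower, and in the Olfr311 run 1 of 15 was higher and 2 lower. In the Olfr376 run both shares were close to the background, in the Olfr1377 run the share that was higher lay above it, and in the Olfr311 run both shares lay below it. The Olfr311 run was also the least abundant. Low counts make a call harder to reach, and their part in these shares was not tested.

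Over the 48 members that averaged 10 counts or more, the middle of the Olfr1377 run stood above that of the OR family. Its median log2 fold change (RTP1,2DKO over wild-type) was 1.07 over 18 members in the OR-normalized fit, against -0.17 over 960 intact ORs, and 0.11 against -1.13 in the all-gene fit. The distance to the OR median was 1.24 in both, which differ mainly in a shift common to the genes. The median of the Olfr311 run (13 members) was -0.51 in the OR-normalized and -1.45 in the all-gene fit, 0.34 and 0.32 below the OR median. The median of the Olfr376 run (17 members) was -0.15 and -1.08, 0.01 and 0.05 above it. These medians describe the members and carry no test, since members of a run share sequence and position.

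The split of calls depended on where the zero of the OR-normalized scale was placed. With the total intact OR count of a library as its scale in place of the typical OR, the OR median moved from -0.17 to -0.95, and 177 intact ORs were higher and 516 lower, against 314 and 279. The Olfr1377 run then had 7 members higher and 5 lower, the Olfr376 run had 1 and 9, and the Olfr311 run had 0 and 12. The medians relative to the OR family were 1.25, 0.00 and -0.32 on that scale, which by its construction moves nearly all genes alike. Some of the smaller counts also rested on single mice. In the all-gene fit, 8 members of the Olfr311 run were lower with all mice, 3 without RTP1,2DKO mouse 2, 2 without RTP1,2DKO mouse 3, 4 without wild-type mouse 1 and 3 without wild-type mouse 2. In the OR-normalized fit, that run had 4 lower without RTP1,2DKO mouse 1 and 1 without any 1 of the wild-type mice, the Olfr376 run had 3 higher without RTP1,2DKO mouse 1, and the Olfr1377 run had 1 lower without wild-type mouse 1. The 10 higher calls of the Olfr1377 run numbered 10 or 11 whichever mouse was left out.

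**Figure D2:**
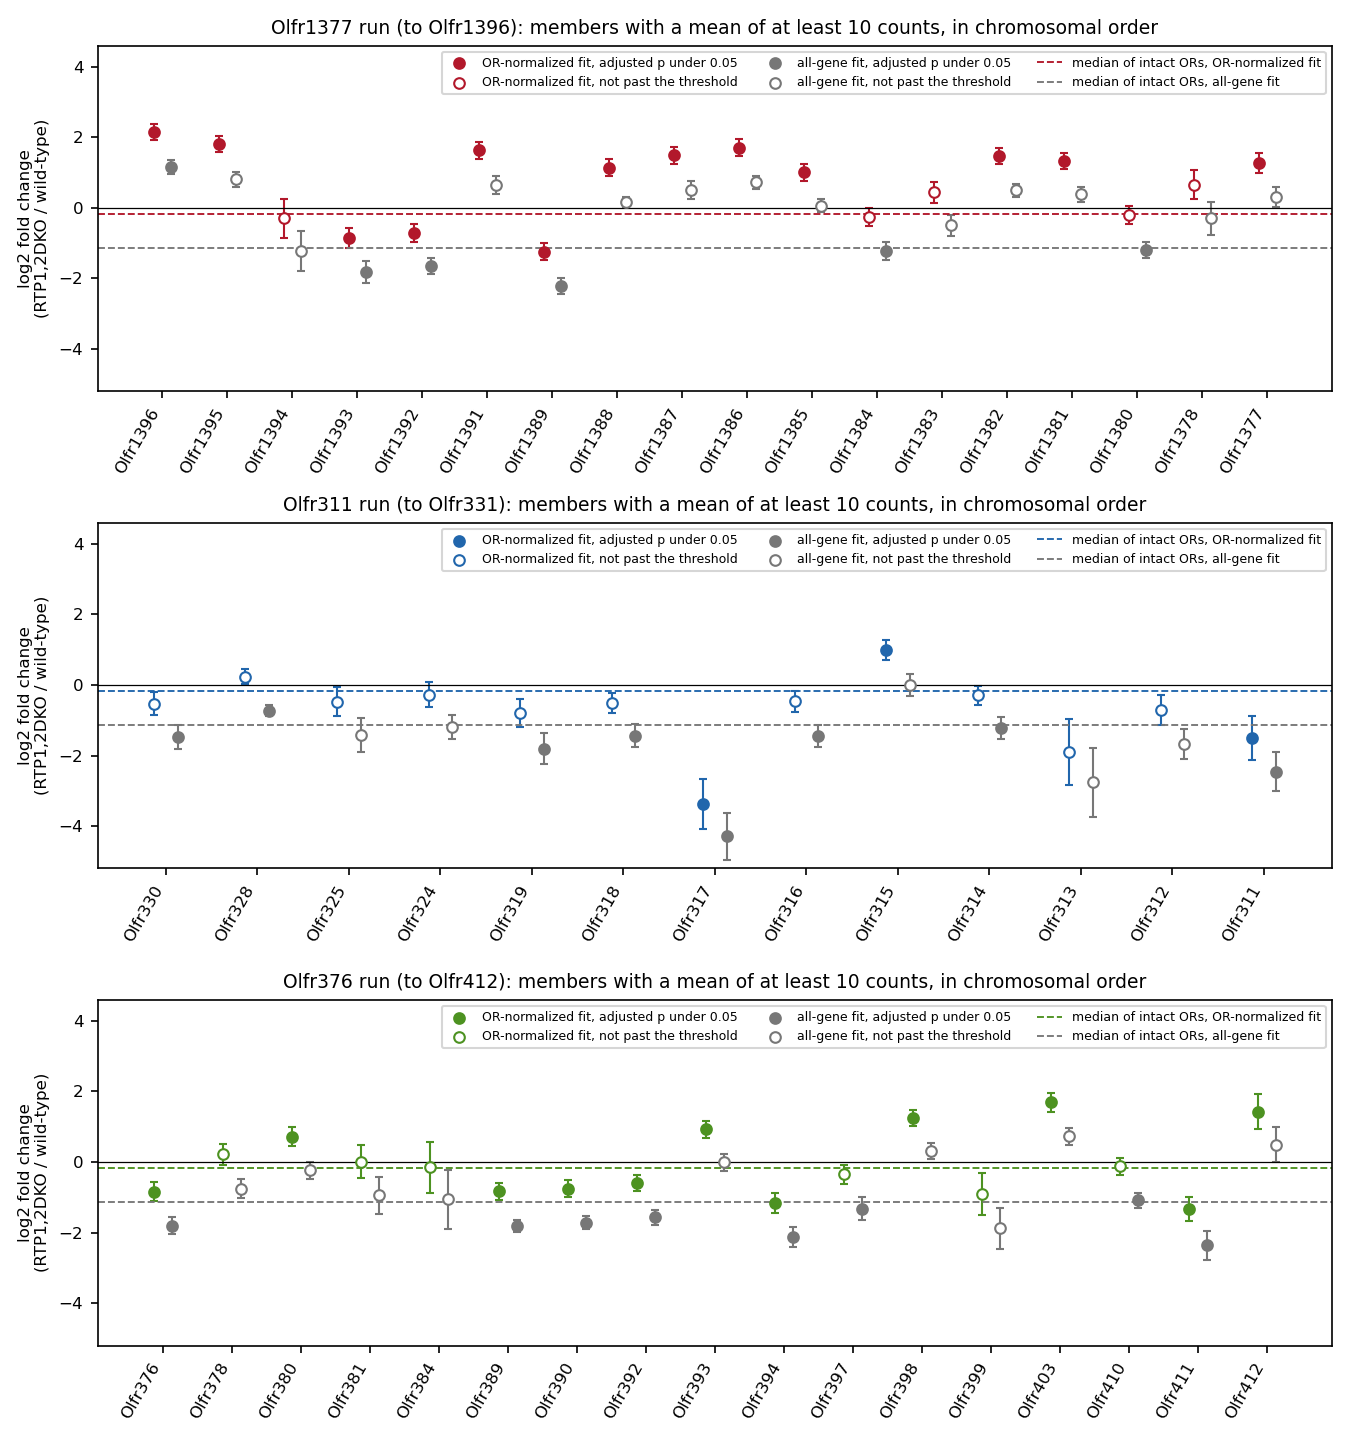
Log2 fold change (RTP1,2DKO over wild-type) with its SE for each member with a mean of at least 10 counts, in chromosomal order, coloured for the OR-normalized and grey for the all-gene fit. Filled points passed an adjusted p under 0.05, and dashed lines are the medians of intact ORs (-0.17 and -1.13). Most members of the Olfr1377 run lie above both lines, while Olfr317 is lowest of all.

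Olfr1396, at the end of its run (chr11:49109982-49114874, minus strand), had the highest fold change of the members that passed. Its OR-normalized counts (estimated counts divided by the library's scaling factor over intact ORs) were 130.3, 184 and 181 in wild-type and 586, 909.7 and 694 in RTP1,2DKO. No wild-type mouse reached the lowest RTP1,2DKO mouse, and the log2 fold change was 2.15 ± 0.23 (SE), adjusted p = 4.17e-10. It was also the 1 member that rose in the all-gene fit, 1.15 ± 0.20 (SE), adjusted p = 0.00388. Its next neighbour Olfr1395 (chr11:49142274-49150453) had OR-normalized counts of 277, 472 and 327 in wild-type and 1075, 1444 and 1262 in RTP1,2DKO, again without overlap (1.81 ± 0.23 (SE), adjusted p = 6.97e-09). Its all-gene value was 0.80 ± 0.22 (SE), adjusted p = 0.0690. With the mouse number as a block, Olfr1395 and Olfr1386 passed in the all-gene fit as well (adjusted p = 0.00763 and 0.0245), which gave 3 members higher in place of 1. The same 3 passed without wild-type mouse 2, at adjusted p = 0.00118 for Olfr1395 and 0.0438 for Olfr1386.

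From Olfr1391 to Olfr1385, members that rose among ORs stood beside one that fell. Olfr1391 went from 159, 119.7 and 76.0 OR-normalized counts in wild-type to 375, 364 and 365 in RTP1,2DKO (1.63 ± 0.24 (SE), adjusted p = 1.55e-07). The next member along the chromosome, Olfr1389 (chr11:49423067-49432968), went the other way, from 289.7, 286 and 271 to 135, 132 and 89.2. All 3 RTP1,2DKO mice had under the lowest wild-type value (-1.25 ± 0.24 (SE), adjusted p = 1.99e-05), and the gene also fell in the all-gene fit (-2.21 ± 0.23 (SE), adjusted p = 1.38e-04). Olfr1388, whose annotated start lies 3.7 kb after the end of Olfr1389, had 1633, 1944 and 2043 in wild-type and 3644, 4807 and 3941 in RTP1,2DKO. It rose among ORs (1.14 ± 0.24 (SE), adjusted p = 6.15e-05), and its all-gene change was 0.16 ± 0.14 (SE), adjusted p = 0.762, so its amount in the whole tissue was not shown to change. Olfr1387, 9.2 kb on, went from 160.1, 139 and 91.6 to 386, 429 and 290.3 (1.50 ± 0.24 (SE), adjusted p = 7.14e-07). Olfr1386, 1.0 kb further, went from 136, 146 and 135 to 379, 563 and 421 (1.71 ± 0.23 (SE), adjusted p = 1.94e-08). The wild-type mice and the RTP1,2DKO mice did not overlap for any of these 5. All 5 had passed in this same fit, so the lack of overlap adds no support, here or for other members that passed. How many intact ORs were without overlap was not counted.

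Olfr1385 had 1293, 990.2 and 1322 OR-normalized counts in wild-type and 2962, 1931 and 2327 in RTP1,2DKO, and rose among ORs by 1.00 ± 0.23 (SE), adjusted p = 2.61e-04. Near the end of the run, Olfr1382 and Olfr1381 rose by log2 fold changes of 1.47 (adjusted p = 4.65e-07) and 1.33 (adjusted p = 1.57e-06), while their neighbour Olfr1380 had -0.21 (adjusted p = 0.494). Scaled to the total intact OR count, Olfr1388, Olfr1385 and Olfr1377 no longer passed (log2 fold changes of 0.36, 0.23 and 0.49). Olfr1393 and Olfr1392 are neighbours 2.5 kb apart, and both fell among ORs. Olfr1393 went from 129.6, 106 and 82.1 to 73.5, 48.2 and 53.8 (-0.86 ± 0.29 (SE), adjusted p = 0.0106) and Olfr1392 from 191, 139.9 and 209 to 121, 121 and 87.8 (-0.71 ± 0.26 (SE), adjusted p = 0.0172). Neither overlapped between genotypes, and both also fell in the all-gene fit (-1.82 and -1.65, adjusted p = 0.00504 and 0.00102). Their OR-normalized calls were lost without wild-type mouse 1, Olfr1393 also without RTP1,2DKO mouse 2, and Olfr1392 also without wild-type mouse 3 or RTP1,2DKO mouse 3. Olfr1384 and Olfr1383 did not pass among ORs (-0.27 and 0.44), nor did Olfr1394 (-0.30). Of the pair that lies 1400.7 kb away, Olfr1377 went from 70.6, 37.3 and 57.9 to 114, 133 and 153 (1.27 ± 0.28 (SE), adjusted p = 1.44e-04), whereas Olfr1378 overlapped between genotypes, with 0.66 (adjusted p = 0.183).

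**Figure D3:**
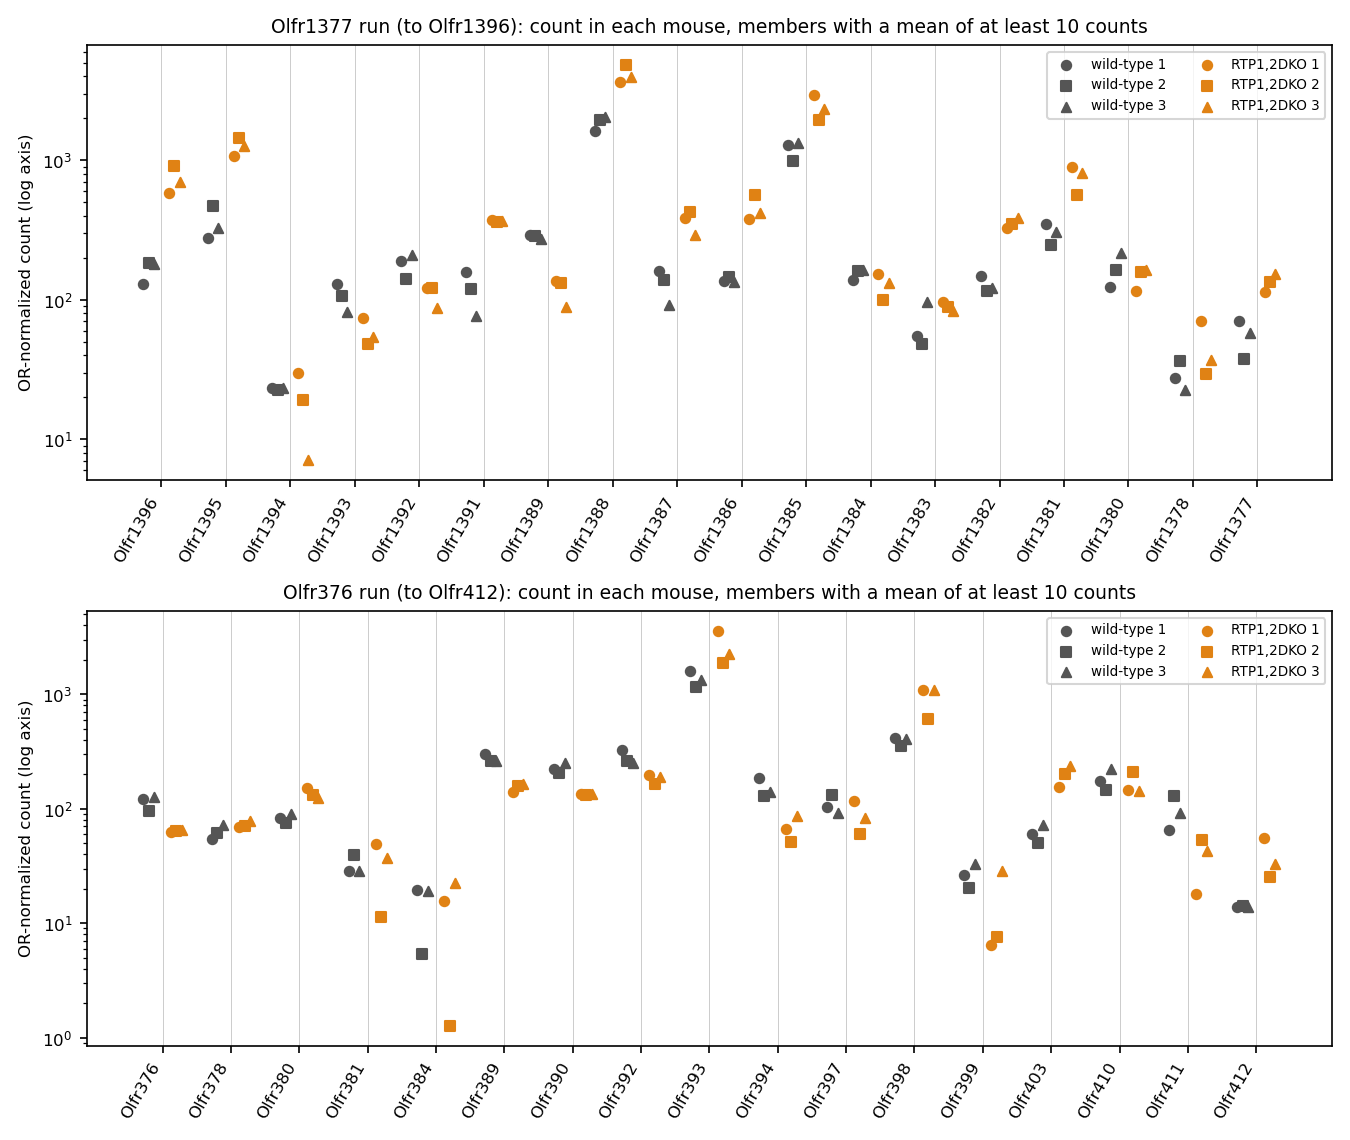
OR-normalized count (log axis) of each member of the Olfr1377 run and the Olfr376 run with a mean of at least 10 counts, in every mouse, in chromosomal order, grey for wild-type and orange for RTP1,2DKO. In Olfr1396, Olfr1395, Olfr1391, Olfr1387 and Olfr1386 all orange points lie above all grey points, and in Olfr1389, Olfr393 and Olfr394 the genotypes are separate in different directions.

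Of the 22 members of the Olfr376 run, 5 rose and 6 fell among ORs. Olfr403 (chr11:74186249-74198612) rose most, from 59.7, 50.4 and 71.7 OR-normalized counts in wild-type to 154, 199 and 235 in RTP1,2DKO (1.70 ± 0.27 (SE), adjusted p = 4.95e-07). Olfr398 went from 416, 351 and 404 to 1099, 609 and 1082 (1.25 ± 0.23 (SE), adjusted p = 6.37e-06). Both were clear of overlap. Olfr393, the most abundant member of the range, had 1582, 1156 and 1330.4 in wild-type and 3581, 1893 and 2228 in RTP1,2DKO, with the highest count in RTP1,2DKO mouse 1 (0.92 ± 0.24 (SE), adjusted p = 0.00104). In the all-gene fit its log2 fold change was -0.01 ± 0.24 (SE), adjusted p = 0.995. Its neighbour Olfr394, which differs from it at 12 bases of the window shown, had 186, 129 and 141 in wild-type and 67.1, 50.8 and 86.4 in RTP1,2DKO, all below every wild-type mouse (-1.16 ± 0.28 (SE), adjusted p = 3.78e-04). It fell in the all-gene fit too (-2.12 ± 0.27 (SE), adjusted p = 5.97e-04). Of the other calls, Olfr412 and Olfr380 were higher by 1.43 (adjusted p = 0.0144) and 0.72 (adjusted p = 0.0173). The call of Olfr412 was lost without RTP1,2DKO mouse 1, and that of Olfr380 without that mouse or without wild-type mouse 2. Scaled to the total intact OR count, of these 5 only Olfr403 stayed past the threshold, and Olfr380 turned to -0.05.

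The members of the Olfr376 run that fell among ORs also fell in the all-gene fit. Both fits use the same counts and differ mainly in a common shift downward, so this is no independent result, in this run or the others. Olfr411 had the largest decrease, from 64.8, 130.4 and 92.4 to 18.1, 53.3 and 42.5 OR-normalized counts (-1.34 ± 0.34 (SE), adjusted p = 7.11e-04). Olfr389 and Olfr390, neighbours on opposite strands, went from 299.9, 261 and 263 to 141, 159 and 163 and from 221, 204 and 251 to 135, 131 and 133. In both genes the RTP1,2DKO mice lay close together and below all wild-type mice (-0.83 ± 0.23 (SE), adjusted p = 0.00198, and -0.76 ± 0.24 (SE), adjusted p = 0.00598). Olfr376 and Olfr392 had log2 fold changes of -0.84 (adjusted p = 0.00823) and -0.60 (adjusted p = 0.0239). The call of Olfr392 was lost without wild-type mouse 1, RTP1,2DKO mouse 2 or RTP1,2DKO mouse 3. In the all-gene fit these 6 had log2 fold changes from -2.36 for Olfr411 to -1.57 for Olfr392. The 5 members under a mean of 10 counts, Olfr382, Olfr385, Olfr395, Olfr401 and Olfr402, passed in neither fit. Of these, Olfr385, chosen after its values were seen, had 0.728, 1.78 and 8.64 in wild-type and 11.6, 11.4 and 11.3 in RTP1,2DKO, all RTP1,2DKO mice above all wild-type mice (1.66 ± 0.96 (SE), adjusted p = 0.140). Olfr401, the only member of its sequence group with a positive value, had 1.46, 0.593 and 0 in wild-type and 6.45, 0 and 5.66 in RTP1,2DKO.

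The Olfr311 run was the least abundant of the runs, and 3 of its 15 tested members passed among ORs. The lowest value of all 56 genes was that of Olfr317 (chr11:58731018-58739212, minus strand), with 44.4, 15.4 and 40.6 OR-normalized counts in wild-type and 2.58, 1.27 and 5.66 in RTP1,2DKO. The genotypes did not overlap (-3.37 ± 0.72 (SE), adjusted p = 7.49e-05), and its all-gene change was -4.29 ± 0.67 (SE), adjusted p = 0.00225. Olfr311 went from 27.7, 23.7 and 24.2 to 11.6, 8.88 and 5.66 (-1.51 ± 0.62 (SE), adjusted p = 0.0351), a call that was kept only without RTP1,2DKO mouse 1 when single mice were left out. Olfr315 was the 1 member that rose among ORs, from 57.5, 71.7 and 44.1 to 103, 137 and 108 (1.00 ± 0.28 (SE), adjusted p = 0.00228), while its all-gene value was -0.00 ± 0.30 (SE), adjusted p = 0.998. Scaled to the total intact OR count, Olfr315 did not pass (log2 fold change of 0.21). The most abundant member, Olfr328, had 832, 583 and 701 in wild-type and 799.8, 712 and 973 in RTP1,2DKO, and the genotypes overlapped (0.23 ± 0.22 (SE), adjusted p = 0.375). It fell in the all-gene fit (-0.73 ± 0.16 (SE), adjusted p = 0.0229), a call lost without wild-type mouse 1 or RTP1,2DKO mouse 2, and on the total-count scale its value turned to -0.56. Olfr330 and Olfr314 also fell in the all-gene fit (-1.47 and -1.23, adjusted p = 0.0327 and 0.0465), and each of these calls was lost in 4 of 6 fits without 1 mouse. Olfr331 had no count in any mouse. Only 32.9% of the 31-base words in its annotated transcripts were found in no other gene, so reads from it could be assigned to a relative.

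Among ORs, called genes of similar sequence moved in the same direction and in opposite directions in near-equal number, except in the closest pairs. Proteins translated from the annotated coding sequences were aligned in pairs, and members were joined into groups where identity reached 60%. Of the 153 pairs within the Olfr1377 run the median identity was 68.7%, of the 231 pairs within the Olfr376 run it was 49.5% and of the 120 pairs within the Olfr311 run it was 40.4%. Between runs the medians were 38.3% to 42.2%, and no group held members of more than 1 run. The largest group held 14 genes, from Olfr376 to Olfr397, of which 2 were higher and 5 lower among ORs. The next held the 13 genes from Olfr1380 to Olfr1393, of which 7 were higher and 3 lower. Pairs in the same run with both genes past the threshold in the OR-normalized fit were then counted. Of the 24 with at least 80% identity, 13 moved in the same direction and 11 in opposite directions. The closest of these were Olfr1381 with Olfr1382, Olfr1385 with Olfr1386 and Olfr1392 with Olfr1393 (94.9% to 95.5% identity). Each of these pairs moved in the same direction, but reads can be divided between genes so alike. For pairs with 60% to under 80% identity the counts were 22 and 20, and for those under 60% they were 39 and 31. Pairs share genes and are no replicates, so these counts carry no test. In the all-gene fit 21 members were lower and only Olfr1396 was higher. With the total intact OR count as scale, 26 members were lower and 8 higher. The near-equal split therefore belongs to the scale set by the typical OR. Of the members that stand alone in sequence, Olfr1395, Olfr1396, Olfr398, Olfr403 and Olfr412 were higher, Olfr317 was lower, and Olfr1394, Olfr323 and Olfr324 did not pass.

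**Figure D4:**
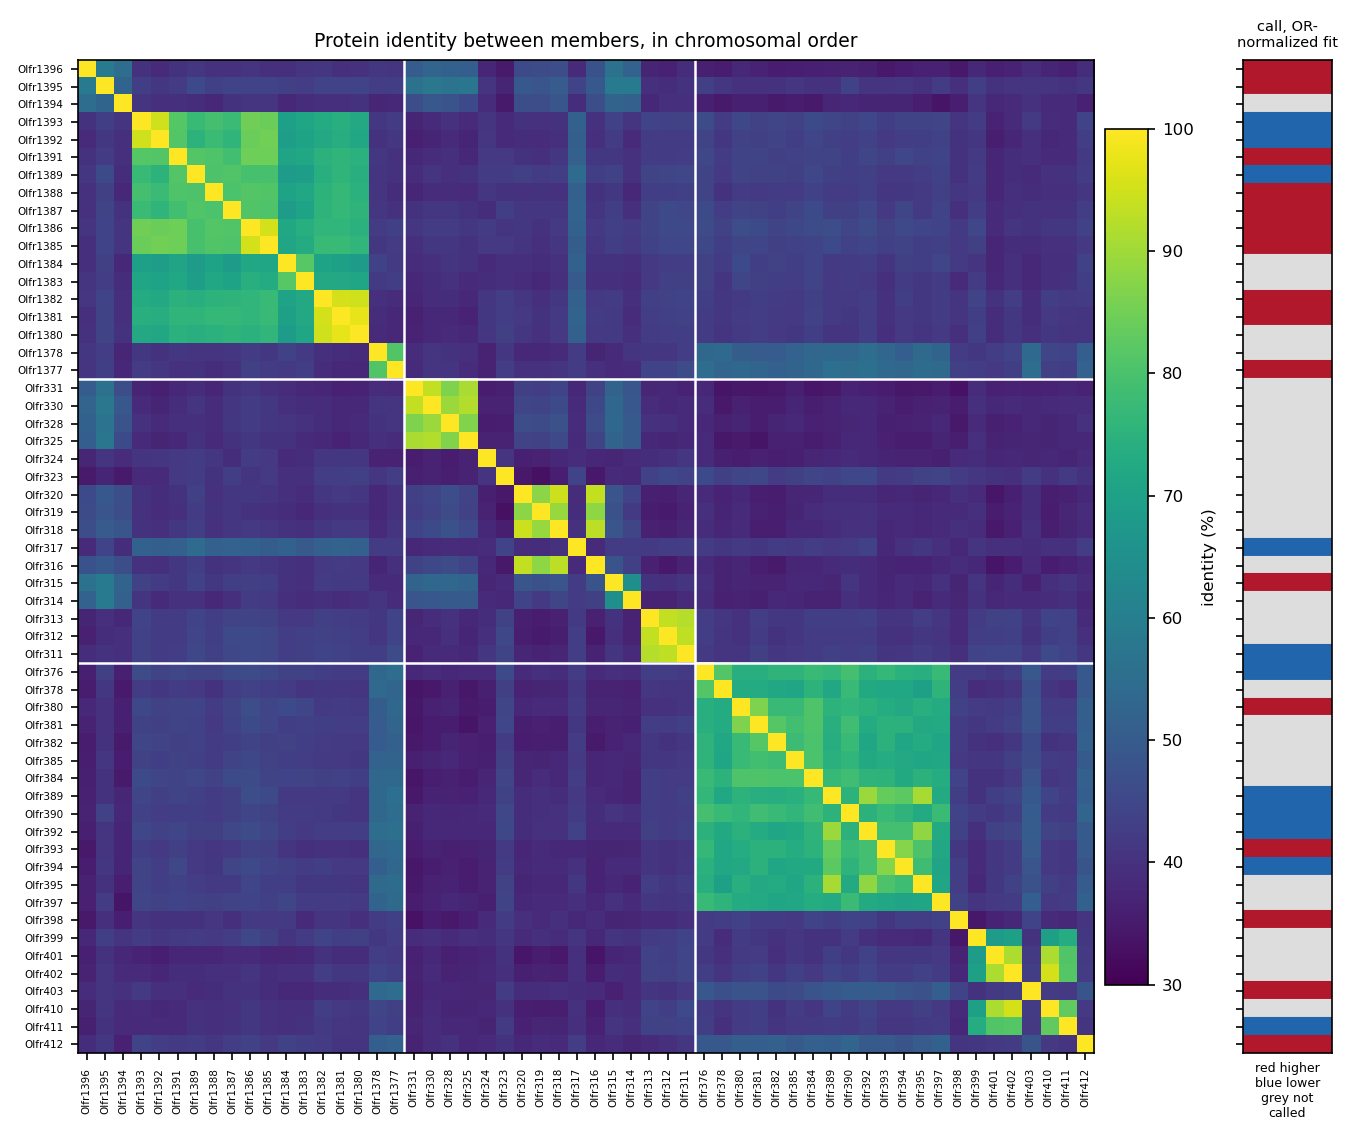
Protein identity (%) between all 56 members in chromosomal order, with white lines between the 3 runs, and beside it the call of each gene among ORs (red higher, blue lower, grey not called or without a count). The bright blocks are the groups of 13, 14 and fewer similar genes, and red and blue stand side by side within the blocks of 13 and 14.

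Reads of near-identical genes can be divided between them by the counting, so genes whose proteins were at least 90% identical were also summed. This was tried after the data had been seen. The calls among ORs were then 8 higher and 2 lower of 14 in the Olfr1377 run, 5 and 6 of 19 in the Olfr376 run and 1 and 2 of 10 in the Olfr311 run. Olfr1385 and Olfr1386, whose proteins were 95.5% identical, rose as a sum (log2 fold change of 1.09, adjusted p = 7.47e-05), and so did Olfr1380, Olfr1381 and Olfr1382 (1.07, adjusted p = 3.98e-05). The value of Olfr1380 on its own is therefore uncertain, since its protein is 97.4% identical to that of Olfr1381. Olfr1392 and Olfr1393 fell as a sum (-0.77, adjusted p = 0.00453), as did Olfr311, Olfr312 and Olfr313 (-1.09, adjusted p = 0.00432). In the all-gene fit, 3 of the 14 features of the Olfr1377 run were lower after summing, in place of 5 of 18 genes. Olfr393 and Olfr394 were 87.2% identical and stayed apart. Of their 31-base words, 85.4% and 95.1% were found in no other gene, and for Olfr1389 and Olfr1391 the shares were 99.2% and 98.2%. Lower shares were found for Olfr1385 (57.1%), Olfr1393 (57.6%), Olfr1386 (64.6%), Olfr1392 (64.8%), Olfr317 (69.3%) and Olfr1388 (72.2%). Reads of these genes could more easily be assigned to another gene. All these shares are from GENCODE transcripts, not from the authors' extended models to which reads were assigned.

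Levels can be compared between genes only per length, as TPM (each transcript's share of the library per unit of length, summed over a gene's transcript models). In wild-type the highest were Olfr1388 at 30.9 ± 9.71 TPM (SD, n = 3), Olfr1385 at 21.5 ± 4.96, Olfr393 at 19.1 ± 5.87, Olfr328 at 14.5 ± 4.45, Olfr389 at 10.8 ± 3.49, Olfr1395 at 9.85 ± 4.23 and Olfr390 at 9.02 ± 1.36. Neighbours in this order differed by less than the larger of their SDs. In RTP1,2DKO, Olfr1388 (28.9 ± 6.12), Olfr1385 (19.3 ± 9.62), Olfr393 (16.6 ± 10.5) and Olfr1395 (14.6 ± 2.12) led, while Olfr328 had 7.34 ± 1.92, Olfr389 1.89 ± 0.637 and Olfr390 1.50 ± 0.800. Olfr1396 had 4.04 ± 1.44 in wild-type and 8.20 ± 1.67 in RTP1,2DKO. In the Olfr311 run, Olfr330 at 6.45 ± 0.445 and Olfr314 at 3.56 ± 1.14 came after Olfr328. TPM depends on the transcript model that reads are given to, and Olfr1384 shows this: its TPM was 5.99 times as high in wild-type as in RTP1,2DKO, but its normalized count was 2.34 times as high. For Olfr389 these ratios were 5.72 and 3.51.

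**Figure D5:**
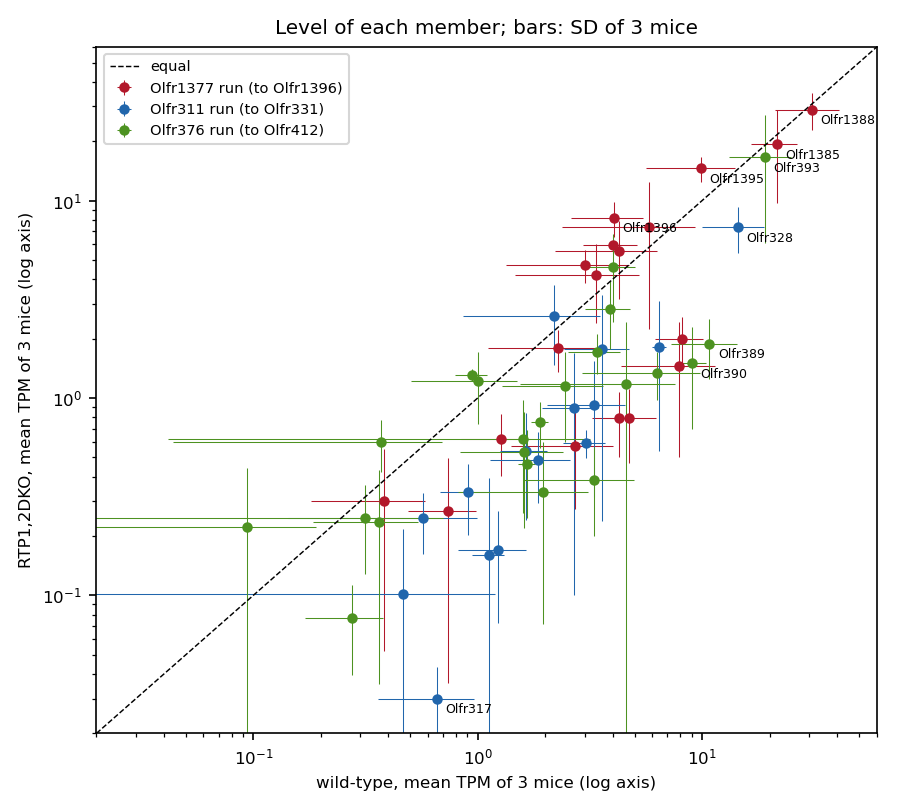
Mean TPM in RTP1,2DKO against mean TPM in wild-type (both log axes) for each member with a value above 0 in both, coloured by run, with bars for the SD of 3 mice (cut off at the lower edge of the axes) and a dashed line of equal levels. Olfr1388, Olfr1385 and Olfr393 lie near the line at the top, Olfr1396 and Olfr1395 above it, and most other genes below it.

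Genes of other families in and around the runs did not pass by edgeR's test. Of the 24 flanking genes, the 3 nearest on each side of each of the 4 places with a mean of at least 10 counts, none passed the threshold in the all-gene fit, and their median log2 fold change was -0.02. Of 7 such genes inside the runs, none passed, and the median was -0.05. Zfp62 and Mgat1, inside the run from Olfr1380 to Olfr1396, had log2 fold changes of -0.14 and -0.12, and Cnot6 beside it had -0.02. At an unadjusted p under 0.05 there was 1 flanking gene, Ccdc92b, which also passed by DESeq2's Wald test, and 1 gene inside the runs, 2210407C18Rik, which did not.

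The bases before the coding sequence were searched for 2 motifs known from OR promoters. RefSeq gives a window from 250 bases before to 50 after the annotated start for 48 of the 56 members, but only 5 of these starts lay within 150 bases of the 5′ end in GENCODE, and 42 lay more than 1000 bases inside the gene, so most windows stand before the coding exon and not at the promoter. The letters TAATNA, which homeodomain factors such as Lhx2 and Emx2 can bind, were found on either strand in 52.9% of the windows of the Olfr1377 run, 77.8% of those of the Olfr376 run and 69.2% of those of the Olfr311 run, against 66.3% over intact ORs and 26.5% over all genes. CCCNNGGG, a form of the site of the Ebf factors, was found in none of 17, 1 of 18 and 1 of 13 windows, against 3.03% over intact ORs and 13.7% over all genes. A match is only a description of the letters, and since most windows do not stand at the promoter, none is printed.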

How the data were processed

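RNA-Seq of olfactory mucosa was deposited as 1 table per mouse, for 3 wild-type and 3 RTP1,2DKO mice. The authors assigned reads with kallisto (version not given in the sources used here) to mouse transcripts of mm10 in which OR genes had been replaced by extended models, and the deposited values are estimated counts, TPM and lengths per transcript. The labels name a stranded KAPA kit, and the study's methods another. From the deposited counts, transcripts were summed per gene and rounded. The total per mouse was 31125410 to 41636996, and the precision of a gene is that of its own count.

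The test was edgeR 4.0.16 (glmQLFit, glmQLFTest, in R 4.3.3) with DESeq2 1.42.0 median-of-ratios factors and no covariate, RTP1,2DKO against wild-type, on all 22152 genes with a count or on 1078 intact ORs, with Benjamini-Hochberg adjustment over each. The scripts were tested on simulated counts. Alternatives were TMM, a filter on low counts, DESeq2's Wald test, scaling to the total intact OR count, a replicate block, each mouse left out, and near-identical genes summed (added after seeing the data).

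The 3 mice of a genotype are numbered in the labels, and the methods call them littermates, but the labels do not tie a number to a litter. Deviations from the group means correlated at 0.139, 0.179 and 0.103 between mice of the same number over 18133 genes. Between mice of different numbers the values were -0.219 to 0.0934. The values depend on one another and the highest of these is near 0.103, so they do not establish the pairs. Among the fits, the numbers were taken to pair the mice only in that with the replicate block. The fold changes, p-values and calls are from the fit without it, except where the block is named. Litter and sex were not separated. P-values weigh the difference between the genotypes against the spread between these mice, which edgeR estimates with information from other genes.

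Members and gene lists were chosen with earlier results of these data known. The list of basal cell markers is not reported here. Named members were, per run, up to 5 with the largest increase and 5 with the largest decrease among those past the threshold of 0.05 and averaging 10 counts or more, the 3 highest in wild-type TPM, those moving against their sequence group, and those without a count. Protein identity came from translated GENCODE M21 coding sequences in place of a protein table, by global alignment (Biopython 1.88). Strand was not considered beyond the authors' counting. Windows before genes were from RefSeq on GRCm38. Coordinates are those of GENCODE, not of the authors' models.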

Additional observations from a re-analysis of the deposited data

How the results depend on the processing

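Among ORs, no named member changed its call with TMM, the filter on low counts, DESeq2's Wald test or the replicate block, which could be taken for 29 or 30 of the 30 named members with a count. The replicate block moved 1 count by over 1.5 times: 3 members of the Olfr1377 run were higher in the all-gene fit in place of 1, as also with DESeq2's Wald test (3), and the added genes were Olfr1395 and Olfr1386. In the Olfr311 run it raised the members lower in the all-gene fit from 8 to 10, by Olfr312 (adjusted p = 0.0517 without and 0.0496 with the block) and Olfr325 (0.198 and 0.0264), and among ORs from 2 to 3, by Olfr319 (0.0746 and 0.0391). It changed no other call of a member in either fit. Under the block Olfr315 turned to 0.04 in the all-gene fit. With the filter on low counts, Olfr314 no longer passed in the all-gene fit (adjusted p = 0.0727).

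Scaling to the total intact OR count moved the most. The Olfr311 run then had 0 higher and 12 lower and a median of -1.27, the Olfr376 run had 1 higher and a median of -0.95, and the Olfr1377 run had 5 lower and a median of 0.30. Olfr328 turned to -0.56 and Olfr380 to -0.05. The difference in share (RTP1,2DKO minus wild-type, percentage points) was -0.283 for the Olfr311 run and -0.185 without Olfr328, and 0.581 for the Olfr1377 run and 1.08 without Olfr907. Leaving out Olfr907 gave -0.318 for the Olfr311 run, and -0.203 in place of -0.267 for the Olfr376 run. Summing near-identical genes left 3 lower in the Olfr1377 run in the all-gene fit.

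With each mouse left out, members lower in the all-gene fit ranged from 2 to 9 in the Olfr311 run, 7 to 8 in the Olfr376 run and 4 to 5 in the Olfr1377 run, where 1 to 3 were higher. In the OR-normalized fit, the Olfr1377 run had 10 to 11 higher and 1 to 3 lower, the Olfr376 run 3 to 6 higher and 5 to 6 lower, and the Olfr311 run 1 higher and 1 to 4 lower. The medians ranged from -1.71 to -1.34, -1.49 to -1.08 and -0.03 to 0.18 (the Olfr311 run, the Olfr376 run, the Olfr1377 run; all-gene), and from -0.67 to -0.42, -0.42 to -0.06 and 0.98 to 1.15 among ORs. The median of -0.03 for the Olfr1377 run was that without RTP1,2DKO mouse 1. The sign turned in the all-gene fit for Olfr315 (-0.23 to 0.29, positive without wild-type mouse 2 or RTP1,2DKO mouse 3), Olfr393 (-0.45 to 0.21, positive without wild-type mouse 1 or RTP1,2DKO mouse 2 or 3), Olfr412 (-0.01 to 0.75, negative without RTP1,2DKO mouse 1) and Olfr1385 (-0.22 to 0.24, negative without RTP1,2DKO mouse 1), and among ORs for Olfr314 (-0.57 to 0.01, positive without RTP1,2DKO mouse 2). The cause of these changes was not tested. Members with few counts limit what can be seen: 7 of the 55 tested had a mean under 10.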

Other observations

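The counts that went to the shortest transcript model of a gene were not used in the comparisons. Of 46 members with several models, a count in every mouse and a mean of at least 20, the share of the shortest model overlapped between the genotypes in 38, was lower in every RTP1,2DKO mouse in 6 and higher in 2. The same tally over all intact ORs was not made, so these counts are not read as a trait of the members. Some of the separated models held few counts, as in Olfr1385, with 10.3, 6.72 and 4.45 in wild-type and 4.57, 0 and 0 in RTP1,2DKO. Of these 8, 3 are given, chosen after their values were seen. For Olfr1384, the model of 1033 bases took 37.7, 60.1 and 45.2 counts in the wild-type mice and 1.26, 0.835 and 5.05 in the RTP1,2DKO mice. These were 19.6% to 24.0% of the gene's counts in wild-type and 1.06% to 5.45% in RTP1,2DKO. For Olfr1392 the model of 1017 bases took 9.65%, 8.79% and 8.98% in wild-type and was at 0 in all 3 RTP1,2DKO mice, whose counts for the gene as a whole were 94, 95 and 62. Olfr1391 went the other way, with 7.76%, 5.52% and 4.35% in wild-type and 8.35%, 9.58% and 19.4% in RTP1,2DKO for its model of 937 bases. The reads behind these models were not examined here, and the assignment of a read to a short or long model is an estimate.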
